A study of Mus musculus with 10 samples.

Results

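Arg1, Rgs18, Sema6d, Rab27b, Dkk3, Hs3st1, Stab2 and Slain1 are 8 mouse genes whose nearest chromatin regions marked by dimethylation of histone H3 at lysine 4 (H3K4me2) were among the tallest called in group 2 innate lymphoid cells (ILC2s) and in no T cell library. They were selected on these data by that height, so their difference between ILC2s and T cells is described here and not tested. A region belonged to a gene when that gene was the nearest protein-coding RefSeq gene within 100 kb. All 8 genes were found among 21896 protein-coding genes, of which 13532 were nearest to a peak in at least 1 library. They held 30 of 30241 regions, each a stretch where peaks lay within 500 bp of each other. Of these 30, 24 were called in both ILC2 libraries and in no T cell library, 4 had a T cell peak as well, and 2 were called in 1 ILC2 library only.

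The study profiled H3K4me2 by chromatin immunoprecipitation and sequencing in lymphocytes sorted by flow cytometry from Gata3-YFP/YFP mice, which carry a fluorescent reporter at Gata3, with airway inflammation. ILC2s, T helper 2 (Th2) cells and cells labelled naive T cells were each profiled in 2 libraries, 1 made from lavage of the airways and 1 from the draining mediastinal lymph node (below, lavage and node). Spleen and thymus contributed 1 library of CD4+ cells apiece, so 6 of the 8 libraries were of T cells. The title of the series puts ILC2s in allergic inflammation of the airways, and the comparison made here asks which of these regions ILC2s held apart from T cells. The extraction protocol gives the same reporter mice and inflammation for every sample, so no group is free of either. Age, sex, the agent that caused the inflammation and the gate used to sort naive T cells are not given in the labels. The labels also do not say that the libraries came from separate animals, so every p-value measures only the spread between these samples. In pooled cells, a mark in fewer cells and less mark per cell cannot be told apart.

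H3K4me2 lies on nucleosomes at promoters and enhancers, and long stretches of it are often found at genes that define a cell type. ILC2s are tissue lymphocytes without an antigen receptor that respond to epithelial alarm signals and, like Th2 cells, make type 2 cytokines under the transcription factor GATA3. Arg1 encodes the cytosolic arginase that splits arginine into ornithine and urea, and it is known in lung ILC2s and in alternatively activated macrophages. The other 7 genes encode proteins of several kinds: an enzyme of heparan sulfate (Hs3st1), regulators inside the cell (Rgs18, Rab27b, Slain1), and secreted or surface proteins (Dkk3, Sema6d, Stab2).

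RefSeq promoter sequences were at hand for 4 of the 8 genes (Sema6d, Hs3st1, Stab2 and Slain1), at 5 starts. The 250 bases before 4 of these starts are shown because the starts fall into 3 kinds: under a peak in ILC2s alone (Stab2, Hs3st1), under a peak in all 8 libraries (Slain1), and under no peak, 30068 bp from the tallest region of the gene (Sema6d). Sequences are from RefSeq on GRCm38.p6 (mm10 coordinates), written 5′ to 3′ on the strand of the gene. Capitals mark matches on either strand to GATA, to the RUNX motif TGTGGT, to the AP-1 motif TGANTCA, to the RORE motif AGGTCA and to the ETS motif GGAAG.
Stab2, chr10:87007943-87008192, minus strand: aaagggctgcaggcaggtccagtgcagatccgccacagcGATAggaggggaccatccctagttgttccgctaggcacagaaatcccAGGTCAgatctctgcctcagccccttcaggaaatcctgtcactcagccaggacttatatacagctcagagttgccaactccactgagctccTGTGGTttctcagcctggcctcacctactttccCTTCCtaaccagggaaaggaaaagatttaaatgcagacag
Hs3st1, chr5:39644632-39644881, minus strand: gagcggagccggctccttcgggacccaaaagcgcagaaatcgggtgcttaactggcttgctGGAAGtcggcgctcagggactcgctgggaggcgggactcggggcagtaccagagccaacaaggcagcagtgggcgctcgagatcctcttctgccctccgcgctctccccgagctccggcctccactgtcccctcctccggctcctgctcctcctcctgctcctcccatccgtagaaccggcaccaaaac
Slain1, chr14:103649978-103650227, plus strand: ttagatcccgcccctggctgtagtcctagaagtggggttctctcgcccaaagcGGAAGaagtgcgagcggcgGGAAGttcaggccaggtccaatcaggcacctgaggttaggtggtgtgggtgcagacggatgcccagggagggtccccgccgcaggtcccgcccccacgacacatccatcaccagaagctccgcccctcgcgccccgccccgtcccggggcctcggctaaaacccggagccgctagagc
Sema6d (second start), chr2:124653331-124653580, plus strand: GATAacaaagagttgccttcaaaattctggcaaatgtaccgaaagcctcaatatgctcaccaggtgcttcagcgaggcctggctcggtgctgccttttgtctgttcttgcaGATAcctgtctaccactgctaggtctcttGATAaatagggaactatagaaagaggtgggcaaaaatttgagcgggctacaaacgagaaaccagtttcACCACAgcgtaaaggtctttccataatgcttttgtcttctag

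The Stab2 promoter held 1 match each to GATA, RUNX, RORE and ETS, and its observed over expected CpG ratio of 0.17 lay below the median of 0.37 over all 32851 promoters. The Hs3st1 and Slain1 promoters had CpG ratios of 0.71 each, with 1 and 2 ETS matches and no match to the other motifs. So of the 2 promoters under a peak in ILC2s alone, 1 was poor and 1 rich in CpG. The promoter at the second Sema6d start held 3 GATA and 1 RUNX match, and it lay 2694 bp from the nearest called region, a peak of 44.9 tags in the lavage library of ILC2s alone. The other Sema6d start lay 144902 bp from the nearest region. These short motifs are common: 53.6% of all promoters of the same length hold GATA, 64.1% ETS, 14.0% RUNX, 14.0% RORE and 6.75% AP-1. A match is a run of letters and not a measured binding site.

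Heights are given as normalized tags, the sequenced fragments in a peak scaled by the authors to 10000000 tags per library and summed over the peaks of a region. A pair of values gives the lavage library first. Depth was 11870820 to 24945548 tags per library, and 28.7% to 53.7% of tags lay in peaks by the authors' estimate. The lists held 14723 to 21985 peaks. The Th2 libraries were the lowest on each of these measures. They had 16041895 and 11870820 tags, 28.71% and 29.3% of tags in peaks, and 14773 and 14723 peaks. Whether this accounts for the places without a Th2 peak was not tested. The stated tag minimum came to about 40 normalized tags in all libraries (39.9 to 40.4), although 1.1% to 3.6% of listed peaks fell below it, down to 34.5 tags. A gene without a T cell peak therefore may still hold tags that did not meet the peak finder's criteria. The naive T library of the lavage stood apart from that of the node: it held 16725 against 21985 peaks, and 10675.1 against 6256.0 tags near 10 ILC2 marker genes, where the Th2 libraries had 13020.5 and 11666.5. Without it, the counts of 24 regions in ILC2s alone and 4 with a T cell peak were the same.

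Marker genes followed the labels of the sorted cells, with exceptions. Near 10 T cell genes the T cell libraries held 13857.5 to 21731.0 tags and the ILC2 libraries 1667.6 and 1801.5, and Cd4, Cd6 and Themis had no ILC2 peak. Near the ILC2 genes the ILC2 libraries held 25284.1 and 26446.3 tags and the T cell libraries 5183.1 to 13020.5. No peak in any library had Il17rb as its nearest gene. Each peak was given only to its nearest gene, so a peak close to Il17rb may be counted at a neighbour. The same limit holds for the other genes described as having no peak. Arg1 is also a macrophage gene, so macrophage markers were read beside it. Of 12 macrophage genes, 7 (Csf1r, Adgre1, Cd68, Lyz2, Chil3, Retnla and Siglec1) had no peak in any library, and none had a region called in ILC2s alone. The macrophage list summed to 1257.1 and 1124.8 tags in ILC2s and to 570.2 to 1262.3 in T cells. Of 10 mast cell, basophil and eosinophil genes, Cpa3 (219.7 and 321.9 tags), Cma1 (128.3 and 38.5) and Ccr3 (67.3 and 162.1) had a region in ILC2s alone, and the other 7, Fcer1a and Ms4a2 among them, had no peak. That list summed to 1022.9 and 1302.6 tags in ILC2s and 110.3 to 567.8 in T cells, and its part in the results was not tested. Rgs18 is best known from megakaryocytes and platelets: of 6 genes of that lineage, Pf4 had a region in ILC2s alone (62.5 and 62.6 tags), while Ppbp and Gp9 had no peak. That list summed to 133.9 and 177.8 tags in ILC2s and 0 to 189.7 in T cells. Stab2 is best known from sinusoidal endothelium: of 6 endothelial genes, Pecam1 had such a region (47.7 and 57.4), and Tek, Tie1 and Lyve1 had no peak. That list summed to 1116.8 and 1195.5 tags in ILC2s and 330.4 to 1618.1 in T cells.

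Arg1 had 3 regions, and most of its ILC2 signal lay outside the gene interval, which spans chr10:24915207-24927470. The tallest, chr10:24950417-24961204, began 22947 bp above the upper end of the gene and held 908.8 and 1107.7 tags over 10787 bp. No T cell library had a peak in it. Its tags stood 24.75-fold and 29.14-fold over the immunoglobulin G (IgG) background by the authors' ratio, against a median of 26.41 over all ILC2 peaks. The tallest ILC2-alone regions of the other 7 genes lay below that median in both libraries. Their ratios ran from 12.42 (Rab27b, lavage) to 25.36 (Dkk3, node). The labels give those IgG samples the H3K4me2 antibody, so what the ratio means is unsure.

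A second Arg1 region, chr10:24922207-24932367, overlapped the upper end of the gene and held 823.4 and 765.2 tags in ILC2s. There the naive T library of the node had 1 peak of 64.2 tags and spleen CD4+ cells 1 of 64.3 tags, each 1000 bp wide. The naive T library of the lavage, both Th2 libraries and the thymus had none. So the T cell peaks covered 1000 bp of a region of 10160 bp, and they sat just above the gene end, at chr10:24927736-24928736 in the naive T cells. A smaller region 87513 bp above the gene held 159.1 and 151.1 tags, also in ILC2s alone. Summed over the gene's regions, Arg1 had 1891.3 and 2024.0 tags in ILC2s (1957.6 ± 93.8, SD, n = 2), 59.4% of them in the regions without a T cell peak.

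Hs3st1 encodes a sulfotransferase that modifies heparan sulfate chains and makes their antithrombin binding sites. It had 2 regions and no peak in any of the 6 T cell libraries. The taller, chr5:39637171-39645897, covered the promoter printed above at the upper end of the gene and held 572.4 and 636.4 tags over 8726 bp. The other lay inside the gene and held 127.9 and 126.1 tags. The Hs3st1 sum of 700.3 and 762.5 tags (731.4 ± 44.0, SD, n = 2) was the smallest of the 8 genes.

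Rgs18 encodes a regulator that speeds the shutdown of G protein signals. It carried the tallest of all regions called in ILC2s alone, chr1:144764208-144777173, which overlapped the upper end of the gene. That region held 1259.1 and 1109.0 tags over 12965 bp, 95.0% of the tags of the gene. The remaining Rgs18 region lay 62563 bp below the gene and held 60.9 and 63.1 tags. No T cell library had a peak at either. The Rgs18 sum was 1320.0 and 1172.1 tags (1246.0 ± 104.6, SD, n = 2).

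Rab27b encodes a small GTPase that brings secretory granules to the plasma membrane. Both of its regions lay inside the gene interval, chr18:69979131-70141633, and away from either end of it. The taller, chr18:70041508-70054687, held 736.4 and 864.6 tags over 13179 bp, and the other 90.6 and 114.3 tags. Summed, Rab27b had 827.0 and 978.9 tags in ILC2s (903.0 ± 107.4, SD, n = 2). None of the 6 T cell libraries had a peak nearest to the gene, and at its ends the ILC2 libraries had none either.

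Slain1 encodes a protein that tracks growing microtubule ends, and it was the member marked in every T cell library. Its first region, chr14:103648629-103668611, covers the promoter printed above. It held 727.2 and 858.4 tags in naive T cells, 656.4 and 597.3 in Th2 cells, 1640.0 and 1779.6 in ILC2s, 735.1 in the spleen and 873.6 in the thymus. The ILC2 and T cell values do not overlap, as at 937 of 11060 regions called in all 8 libraries (8.47%) where both ILC2 values were above all 6 T cell values. This lies on the contrast used to select the genes, so nothing is read from it.

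The T cell peaks at the Slain1 promoter were narrower than those of ILC2s, but their density differed less and not in 1 direction. They spanned 6936 and 6715 bp in naive T cells, 8752 and 8129 bp in Th2 cells, 6656 bp in the spleen and 6819 bp in the thymus. In ILC2s they spanned 17838 bp, in 2 peaks, and 19569 bp. Per kb of peak, ILC2s held 91.9 and 90.9 tags, naive T cells 104.8 and 127.8, Th2 cells 75.0 and 73.5, the spleen 110.4 and the thymus 128.1. On this scale the ILC2 values lay between those of Th2 cells and those of the other T cells. The difference in log2 tags, centred on the median of each library, was 1.29 between ILC2s and naive T cells and 1.02 between ILC2s and Th2 cells, and per kb of peak it was -0.11 and 0.03.

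The next Slain1 region, chr14:103671606-103682072, lay inside the gene, just above the first, and was called in ILC2s alone with 581.3 and 622.0 tags. The naive T, spleen and thymus peaks of the first region ended at position 103655565 or before, and those of Th2 cells at 103657968 or before. The ILC2 tags thus went on inside the gene where no T cell library had a peak, as far as position 103682072. The gene ends at 103704907. The last Slain1 region, 13214 bp above the gene, held 115.5 and 110.8 tags in ILC2s, 74.3 in naive T cells of the node, 39.9 in Th2 cells of the lavage, 61.1 in the spleen and 89.3 in the thymus. Only 24.8% of the ILC2 tags of Slain1 (2424.6 ± 124.2, SD, n = 2) lay in its region without a T cell peak, the lowest share of the 8 genes.

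Dkk3 encodes a secreted glycoprotein of the Dickkopf family, whose other members block Wnt co-receptors. It had 4 regions and no T cell peak. The tallest, chr7:112153936-112163827, overlapped the upper end of the gene and held 733.6 and 800.7 tags over 9891 bp. A region inside the gene held 238.5 and 233.9 tags and another 80.2 and 45.6. A further peak of 39.4 tags, at the limit of calling, was present in the ILC2 library of the node alone. The Dkk3 sum was 1052.3 and 1119.6 tags (1086.0 ± 47.6, SD, n = 2).

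Sema6d encodes a transmembrane semaphorin, a ligand of plexin A receptors, and it had the most regions, 10. The tallest, chr2:124608737-124623513, lay inside the gene and held 1190.2 and 987.3 tags over 14776 bp, the widest of the regions in ILC2s alone described here. A pair of regions beside it held 187.6 and 154.2 tags, and 201.6 and 178.7 tags. A region far below these held 39.3 and 46.0 tags, and 1 between them and the upper end of the gene held 44.9 tags in the lavage and had no peak in the node.

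The other 5 Sema6d regions lay above the gene, 27613 to 72646 bp from it. The 4 called in ILC2s alone held from 42.0 to 155.1 tags. The other, chr2:124718603-124721555, held 161.6 and 119.6 tags in ILC2s, 40.1 and 86.1 in naive T cells, 42.9 in the spleen and 62.0 in the thymus, with no peak in either Th2 library. This was the 1 place near Sema6d with a T cell peak, and it lay 50814 bp from the gene. Summed, Sema6d had 2190.8 and 1834.8 tags in ILC2s (2012.8 ± 251.7, SD, n = 2), 91.9% of them in regions without a T cell peak.

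Stab2 encodes a scavenger receptor that clears hyaluronan. It had 4 regions, all called in ILC2s alone. The tallest, chr10:87015180-87024174, lay 7142 bp above the gene and held 581.3 and 579.1 tags. The region over the promoter printed above, chr10:87002273-87011206, held 493.9 and 295.2 tags. Regions inside the gene held 283.4 and 293.9, and 121.1 and 134.9 tags. The signal was spread more evenly than at the other genes: the tallest region held 41.7% of the Stab2 tags (1391.4 ± 124.9, SD, n = 2), against 51.5% to 95.0% for the tallest of the other 7.

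**Figure D1:**
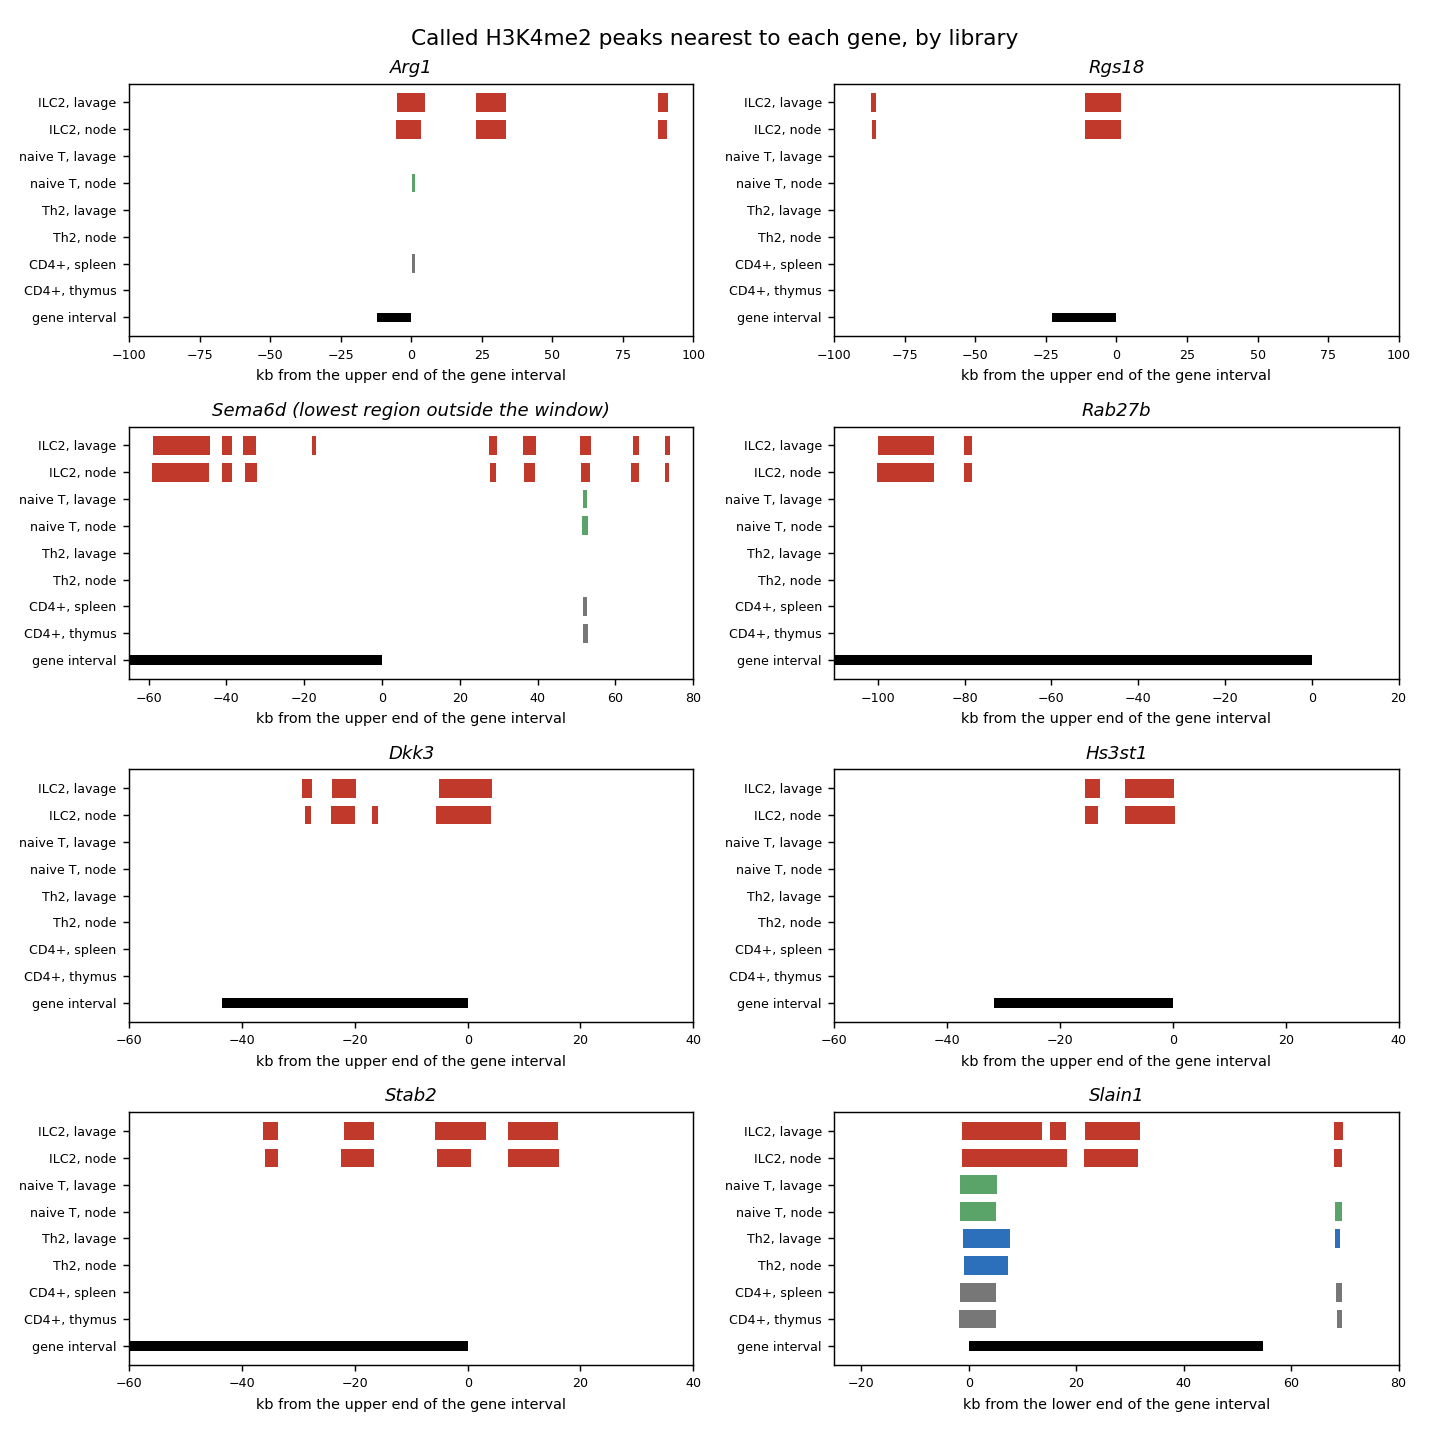
Called H3K4me2 peaks nearest to each of the 8 genes in each library (horizontal axis: kb from the upper end of the gene interval, or from the lower end for Slain1; black bar: gene interval). ILC2 peaks are red, naive T green, Th2 blue and spleen or thymus CD4+ grey. T cell peaks appear at Arg1, Sema6d and Slain1 only, and at Slain1 the ILC2 peaks run on to the right of those of T cells. The lowest Sema6d region lies outside its panel.

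Across the 8 genes, 20 of the 30 regions lay inside or overlapping the gene and 10 outside it. Of the 28 called in both ILC2 libraries, 24 had no T cell peak. Over the whole series 2522 of 19422 regions called in both ILC2 libraries (13.0%) had none. By gene, 5 of the 8 (Stab2, Rgs18, Dkk3, Rab27b and Hs3st1) had no peak in any T cell library, against 354 of 11392 genes (3.11%) with a peak in both ILC2 libraries. These counts follow from how the genes were selected, and nothing is read from them. Among those 354 genes, ordered by summed ILC2 tags, Stab2 ranked 1, Rgs18 2, Dkk3 3, Rab27b 5 and Hs3st1 10.

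**Figure D2:**
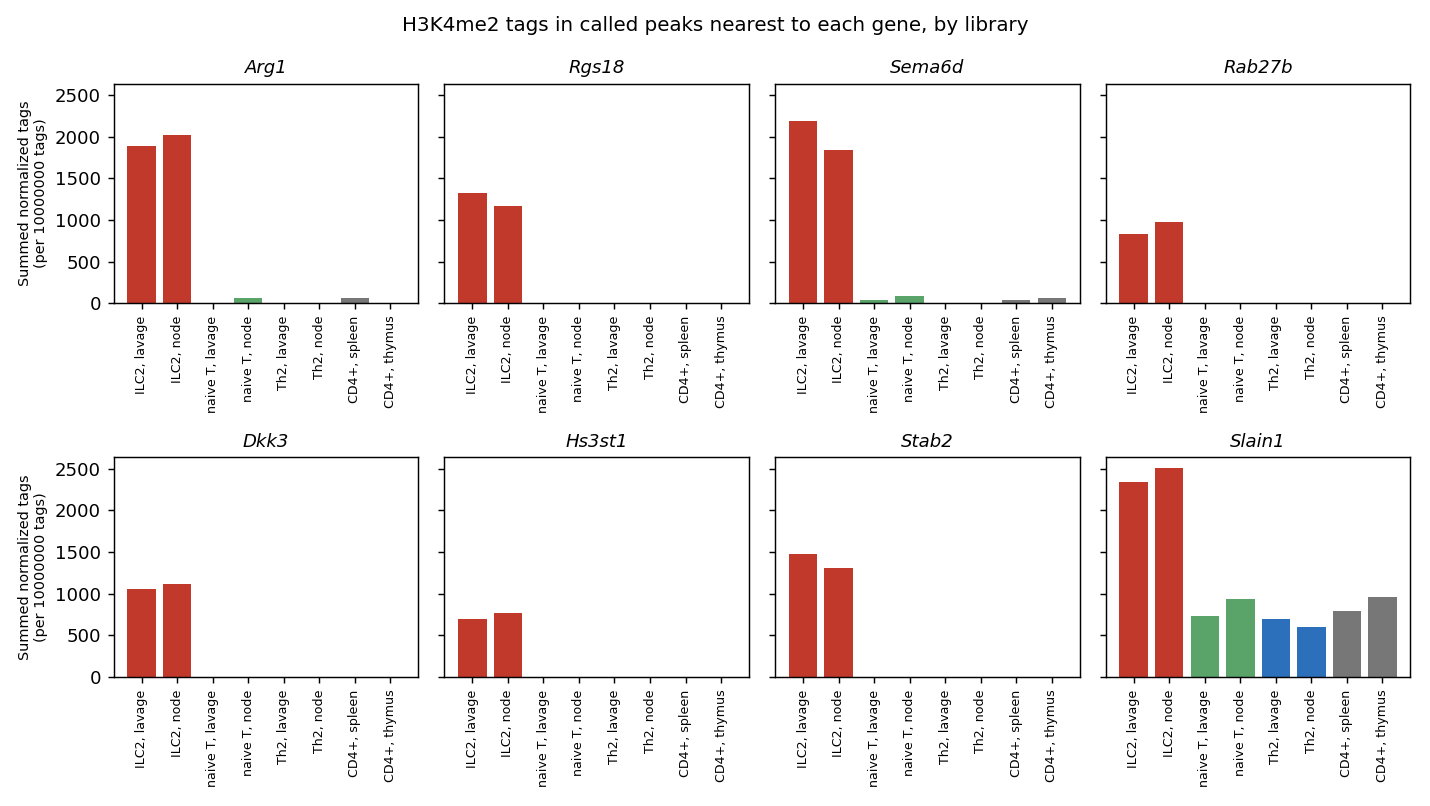
Summed normalized tags (per 10000000 tags) of the called peaks nearest to each gene, 1 bar per library, with the bars of the ILC2 libraries in red. Slain1 has bars of 597.3 to 962.9 tags in the T cell libraries, while Arg1 and Sema6d have T cell bars of at most 86.1 and the other 5 genes have none.

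The tallest ILC2-alone regions of the 8 genes were all among the 13 tallest of 2522. They ranked 1 (Rgs18), 2 (Sema6d), 3 (Arg1), 7 (Rab27b), 8 (Dkk3), 10 (Hs3st1), 11 (Slain1) and 13 (Stab2). The set is therefore not every gene with a region of this height. Between them lay a region with no protein-coding gene within 100 kb (chr2:9172856-9181822, 944.6 tags, the mean of the 2 ILC2 libraries), and regions at Pan3, Cep290, Fut8 and Hibadh. The lowest of the 8, at Stab2, held 580.2 tags. The regions ranked just below it, at the non-members Swap70 and Plcb4, held 575.3 and 560.4. The step from member to non-member was thus small, and Pan3, with 826.2 and 1024.1 tags, stood above 5 of the members.

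**Figure D3:**
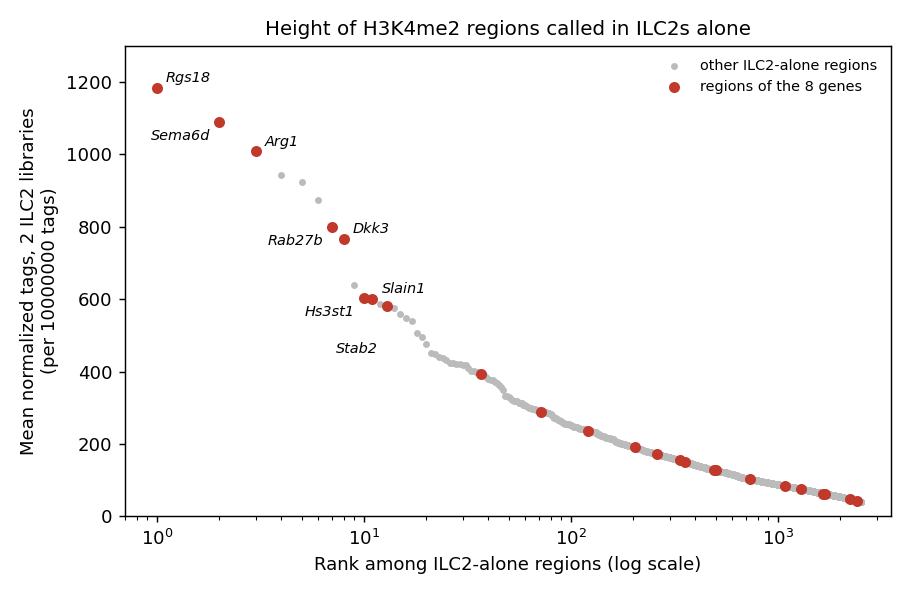
Height of the 2522 regions called in ILC2s alone (vertical axis: mean normalized tags of the 2 ILC2 libraries) against their rank by that height (horizontal axis, log scale). Red points are the 24 regions of the 8 genes, with the tallest of each named. They run from 1184.0 tags for Rgs18 down to 42.6 tags for the lowest Sema6d region.

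The other 16 regions in ILC2s alone held from 42.6 to 394.5 tags. Their median was 127.5 tags and their median width 2605 bp, against 76.9 tags and 1799 bp over all 2522. They ranked 37 to 2398, with the Stab2 promoter region first, another Stab2 region at rank 72 and the lowest Sema6d region last.

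The tallest regions were also among the widest, though height, a sum of tags over a region, is not independent of width. The 8 spanned 8726 to 14776 bp, and 17 of the 2522 regions (0.67%) were at least as wide as the narrowest of them. Their density was 57.5 to 93.5 tags per kb, against a median of 42.3, and 91.0% of the 2522 lay below the lowest of the 8. Ranked by density, Arg1 came to rank 3 and Rgs18 to rank 4, while Slain1 fell to rank 227 and Rab27b to 151. The stated minimum of about 40 tags sets no bound on T cell tags at the tallest Arg1 region. A peak also had to reach a 4-fold excess over IgG to be called. A fold against the T cell libraries is not given, since they have no peak there to measure.

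**Figure D4:**
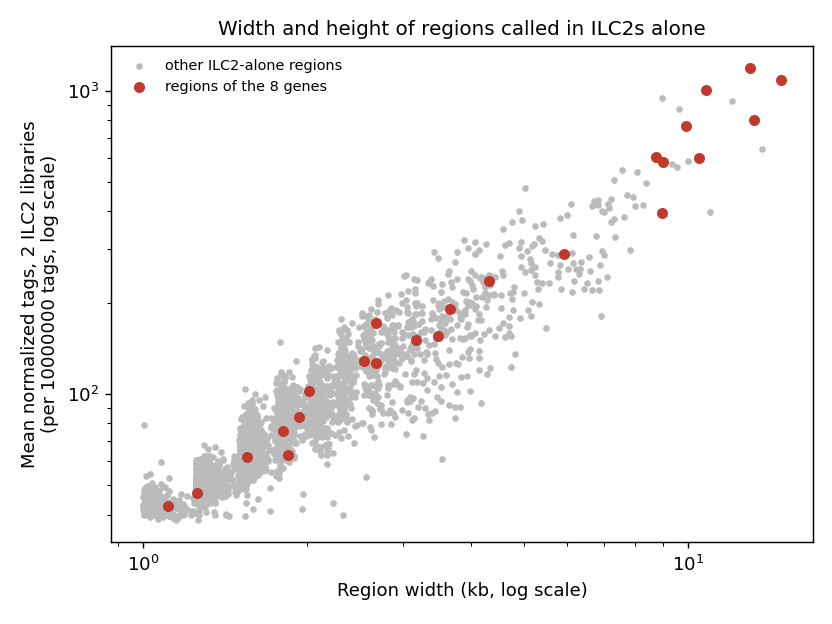
Width (horizontal axis, kb, log scale) and height (vertical axis, mean normalized tags of the 2 ILC2 libraries, log scale) of the 2522 regions called in ILC2s alone. Wider regions tended to be taller, height being a sum of tags over the region. The tallest region of each of the 8 genes (red) lies at the far right, at 8726 bp or wider.

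The 2 ILC2 libraries, which come from different sites, gave similar heights at these regions. The log2 ratio of node over lavage had a median of -0.02 over the 28 member regions called in both, with 12 higher in the node and 16 in the lavage. Over all 19422 such regions the median was 0.04 with an SD of 0.34. The lowest ratios were -0.81, at the small Dkk3 region of 80.2 and 45.6 tags, and -0.74, at the Stab2 promoter. The highest was 0.34, at the smaller Rab27b region. Of all regions, 1.99% lay at or below -0.81. With 1 library per site there is no replicate check of any of these ratios.

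**Figure D5:**
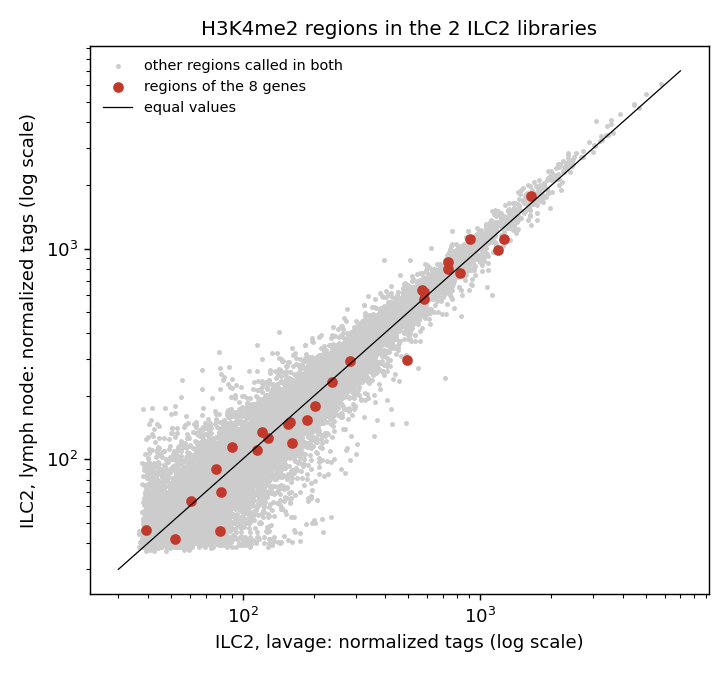
Normalized tags of each region called in both ILC2 libraries, lavage (horizontal axis) against lymph node (vertical axis), both on log scales, with the line of equal values. The 28 regions of the 8 genes (red) lie along the line. The 2 farthest below it are the Dkk3 region of 80.2 and 45.6 tags and the Stab2 promoter region of 493.9 and 295.2 tags.

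A test was possible on the contrasts that the selection did not use, between Th2 and naive T cells and between the sites, at the 1 member region called in all 6 airway libraries, the Slain1 promoter region. The log2 difference of Th2 from naive T cells was 0.28 (SE 0.15, 95% interval -0.11 to 0.66, adjusted p = 0.35, limma over 11669 regions), not past the threshold of 0.05. Over all these regions 15 (0.129%) were called in either direction. The sign of the Slain1 difference turned without centring (-0.34) and per kb of peak (-0.14). Between lavage and node the difference was 0.11 (SE 0.13, 95% interval -0.23 to 0.46, limma adjusted p = 0.9), and it was -0.07 without centring. For the site limma called 0 of 11669 regions (0.0%), with 543 at an unadjusted p under 0.05. The intervals leave room for a difference of up to 0.66 or 0.46 in log2 tags at Slain1.

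Genes that share a pathway or family with each member were counted from lists, without the 8 members, whose regions were selected. Over all genes the share of regions called in both ILC2 libraries that lack a T cell peak was 13.0%, and no test was made over a list. Near the other R4 regulators of G protein signalling, 5 of 24 regions called in both ILC2 libraries were in ILC2s alone. Rgs1 had 2, and Rgs2, Rgs3 and Rgs21 had 1 each. The tallest of these was that of Rgs21, with 183.6 and 204.6 tags, which is also the nearest gene below Rgs18, 185016 bp away. Near the other semaphorin 6 and plexin A genes the count was 5 of 8. Plxna1, which encodes a receptor of Sema6d, had 3, of up to 295.4 and 235.7 tags, and Plxna2 and Sema6a had 1 each.

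Near the other genes of arginine metabolism, 5 of 27 regions were in ILC2s alone. They lay at Nos2, Slc7a1, Slc7a2 and Sms, and the tallest of them held 101.0 and 94.6 tags at the arginine transporter gene Slc7a2. Arg2, the mitochondrial arginase gene, had 107.8 and 81.0 tags in ILC2s, 39.3 and 125.5 in naive T cells, 100.2 in the spleen and 65.7 in the thymus, with no peak in Th2 cells. Both ILC2 values of Arg2 thus lay within the range of the naive T cells. Ass1, which encodes an enzyme that rebuilds arginine, had 95.0 and 91.5 tags in ILC2s and 65.5 to 273.8 in T cells. Near the other heparan sulfate genes, 6 of 25 regions were in ILC2s alone. They lay at Ext1, Ext2, Hs2st1, Hs3st3a1 and Ndst3, with at most 151.1 and 123.5 tags at Hs2st1.

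Near the other hyaluronan and stabilin genes, 2 of 17 regions were in ILC2s alone. Stab1, the paralog of Stab2, had 1 of 116.7 and 107.8 tags, and Cemip2 had 1. Near Rab27a and the effectors of Rab27, 1 of 15 was in ILC2s alone, at Myrip. Near the other Dickkopf and receptor genes the count was 2 of 11, both at the Wnt co-receptor gene Lrp6. Near the other genes of the microtubule plus end it was 1 of 21, at Mapre2 (186.4 and 191.8 tags). In none of the 8 lists was a region called in all 6 T cell libraries and in no ILC2 library. The share of such regions over the whole series was not computed, so nothing is read from their absence.

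Neighbours of the genes were mixed, and they lay from 1678 to 5054191 bp away. Of the 32 nearest protein-coding genes, 2 on each side, 24 had a T cell peak, against 59.3% of all 21896 genes, and 16 had one in all 6 T cell libraries, against 39.7%. No peak in any library was found for 5, against 38.2%. The 4 neighbours within 10 kb are given first. Med23, 1678 bp from Arg1, had 116.3 and 131.4 tags in ILC2s and 38.8 to 174.7 in T cells. Nt5dc3, 2805 bp from Stab2, had 245.3 and 217.3 tags in ILC2s and 150.2 to 303.5 in T cells. Usp47, 4633 bp from Dkk3, had 603.3 and 799.4 tags in ILC2s and 200.5 to 608.2 in T cells. So at Med23 and Nt5dc3 the ILC2 values lay within the range of T cells, while at Usp47 1 of the 2 lay above it. Ccdc68, 9643 bp from Rab27b, had no peak in any library.

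Farther neighbours included genes with more tags in ILC2s. Both ILC2 sums lay above all T cell sums at 8 of the 32, against 8.38% of all genes. Among them was Akap7, 241620 bp from Arg1 (802.1 and 849.0 tags in ILC2s, at most 380.9 in T cells). Scel, 36882 bp from Slain1 (512.3 and 541.8, at most 147.1), and Clnk, 737077 bp from Hs3st1 (504.3 and 373.6, at most 39.4), were others. A peak in both ILC2 libraries and in no T cell library was found for 3 of the 32, against 354 of all 21896 genes. Rgs21 was 1 of them, 185016 bp below Rgs18. The others were Galnt18 (449.4 and 615.3 tags), 335952 bp below Dkk3, and Micalcl (82.6 and 175.6 tags), 208826 bp above it. In all, 11 of the 32 had at least 1 region in ILC2s alone, against 7.74% of all genes, and none of these counts was tested.

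By the distance between log2(summed tags + 40) over the 8 libraries, the genes most like Arg1 among all genes with a peak were Cntn1 (distance 1.63), Sema6d (1.75) and Stab2 (2.08). Cntn1, which encodes a neural adhesion protein and is not a member, had 1174.2 and 1046.8 tags in ILC2s, 62.6 in naive T cells of the node, 52.2 in the spleen and 48.3 in the thymus. Like Arg1, it had no peak in the Th2 libraries or in naive T cells of the lavage. The distance is a description over 8 libraries that share the same peak finder and limit. It includes the contrast used to select the genes, so nothing is read from members being near Arg1.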

How the data were processed

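The 8 H3K4me2 peak lists were used as deposited. The submitters' processing notes name Bowtie, HOMER and the mm10 build, without versions. The authors called peaks in each library separately, per the file headers, with an initial size of 1000 bp, a 4-fold excess over IgG and a false discovery rate of 0.001, and stitched into regions of variable length. The IgG library was that of the thymus except for the spleen list, and the labels give the IgG samples the H3K4me2 antibody. The deposited signal is a normalized tag count per 10000000 tags, and the deposited fold change is a ratio over IgG.

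Peaks of the 6 airway libraries within 500 bp were merged into 27854 regions. Spleen and thymus peaks were laid over them by an overlap of 1 bp. Those outside them were merged in the same way and kept as 2387 regions. Genes were assigned by the nearest gene interval of RefSeq (GRCm38.p6), without strand, so exons, introns and UTRs were not told apart. Heights are sums over the peaks of a region. limma 3.58.1 (R 4.3.3) was fitted to log2 tags centred on the median of each library, over the 11669 regions called in all 6 airway libraries, with Benjamini-Hochberg adjustment and a threshold of 0.05, and was tested on simulated data. The members and lists were chosen with earlier results of these data known. Named beside the members were family genes with a region in ILC2s alone and the 5 genes next in rank. The 3 genes most like Arg1 and the 2 nearest on each side were also named. Arg2, Ass1, Plxna3, Plxna4, Plcb4, Akap7, Scel and Clnk were chosen for display after their values were seen. Alternatives were the merging distance, the distance to the gene, the peak limit, equal numbers of peaks, left-out libraries, centring, tags per kb, a pseudocount and a replicate block.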

Additional observations from a re-analysis of the deposited data

How the results depend on the processing

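The count of regions in ILC2s alone stayed between 17 and 26 under all 13 alternatives (24 as reported). The count with a T cell peak was 3 to 6 under 11 of them, and 2 both with genes limited to 10 kb and with equal numbers of peaks (14723 per library), which leave fewer regions. With genes limited to 10 kb the Arg1 sum was 794.3 tags, since the tallest Arg1 region lies beyond that distance. The tallest regions have 57.5 to 93.5 tags per kb.

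The count of Th2 against naive T calls, 15 as reported, is not stable: it was 777 without centring, 0 with tags per kb, 18 with a pseudocount of 10 and 22 with the tallest peak of a region in place of the sum, an alternative chosen after seeing the data. Leaving out 1 library gave 0 to 2738 calls: 2738 without the lavage library of naive T cells, 9 without their node library, and 0 without either library of Th2 cells or of ILC2s, where the lone sample left is assumed to vary like the others. The cause was not tested. Replicate numbers are the sites and pair nothing else. With the replicate block the count was 0, and deviations of same-numbered libraries correlated at 0.11, -0.01 and 0.26. The Slain1 difference of Th2 from naive T cells turned to -0.34 without centring and -0.14 per kb, and that of the sites to -0.07 without centring. The site count stayed at 0 in all 10 alternatives run. The lists hold no values for stretches that were not called, so T cell tags there are unknown.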
